A study of Mus musculus with 16 samples.

Results

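Translation initiation factors (eIFs) and elongation factors (eEFs) were followed across muscles of 6- and 24-month-old mice with and without UBR4. The genes were taken by symbol from the TPM table. Of its 47643 rows, 72 symbols began with Eif and a digit or with Eef1 or Eef2, and 7 pseudogene rows and 3 rows excluded by name (among them the sex-linked Eif2s3x and Eif2s3y) were left out. This gave 62 genes, 53 named for initiation and 9 for elongation. Of these, 58 had a mean of at least 1 TPM over the 16 samples and were tested. The other 4 were Eif4ebp3 (mean 0.518 TPM), Eif5a2 (0.468 TPM), Eif4e1b (0.0282 TPM) and Eif2c5 (0.00409 TPM), the last annotated as a long intergenic RNA.

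In eukaryotic translation, eIF2 brings the initiator tRNA to the small ribosomal subunit, eIF3 and the eIF1 group help that subunit to bind and scan the mRNA, and the eIF4F complex recognises the cap and recruits it. During elongation, eEF1A delivers aminoacyl-tRNAs, the eEF1B complex recharges eEF1A with GTP, and eEF2 moves the ribosome by a codon. Most tissues rely on the eEF1A form encoded by Eef1a1, whereas mature skeletal muscle, heart and neurons switch after birth to the form encoded by Eef1a2.

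RNA of the tibialis anterior, a fast muscle of the hindlimb, came from male C57BL6/J mice, with 4 samples, named biological replicates in the labels, for each of WT and UBR4 mKO mice aged 6 or 24 months. UBR4 is a ubiquitin ligase, an enzyme that marks proteins for degradation. All animals were homozygous for floxed Ubr4 and received tamoxifen as young adults. UBR4 mKO mice also carried ACTA1-Cre, a tamoxifen-inducible recombinase driven by a skeletal muscle promoter, and WT mice lacked it. Recombination is therefore limited to myofibers, while the RNA came from the whole muscle with its vessels, nerves, connective tissue and blood cells. In such bulk samples, fewer cells of a type and less RNA per cell cannot be told apart.

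Ubr4, the targeted gene, was lower in the mutants at both ages without overlap of the groups, at 4.92 to 6.54 TPM against 9.09 to 15.7 TPM at 6 months and at 4.28 to 14.6 TPM against 17.0 to 21.1 TPM at 24 months. The myofiber markers Acta1, Ckm, Myh4, Myh1, Myh2, Tnnt3, Tnni2 and Mylpf were detected, and their summed level was between 71409 and 98263 TPM in every sample. TPM values divide reads by transcript length and have the same sum in every sample, so the number of reads behind a value is unknown. The 37 mitochondrially encoded genes took 52.6% to 59.7% of that sum in WT at 6 months and 47.8% to 51.7% at 24 months, and 46.1% to 49.8% and 46.3% to 49.8% in UBR4 mKO at these ages. Because a larger mitochondrial share lowers the TPM of all other genes, each difference is given on the TPM scale and again after dividing each sample by its median-of-ratios factor (called rescaled below). On the TPM scale the median gene differed by a log2 value of 0.33 between genotypes at 6 months and by 0.26 between ages in WT. After rescaling, which is built to bring the median gene near 0, it differed by -0.02 and -0.00416. With the mitochondrial genome left out of the TPM sum it differed by 0.079 and 0.077. Libraries also differed with transcript length. Across the 58 tested factors, the deviation of a library from the other 3 of its group had a Spearman correlation with transcript length of -0.71 in UBR4 mKO replicate 3 and 0.75 in replicate 1 at 24 months, and of 0.70 in WT replicate 2 and -0.68 in WT replicate 4 at 6 months, values that share the libraries they are measured against. Replicate 3 of the older mutants held the largest single deviation, -1.86 for Eif4ebp2.

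The most abundant factors were elongation factors, on the TPM scale and as means over the 16 samples. Eef1a2 stood at 792 TPM and Eef2 at 595 TPM, followed by Eif1 (410 TPM), which guards start codon choice, Eef1g (255 TPM), a subunit of eEF1B, and Eef1a1 (231 TPM). These 5 genes made up 47.8% to 52.7% of the summed level of the 62 genes in every sample. At 6 months the sum was 0.896% ± 0.0232 (SD, n = 4) of the TPM outside the mitochondrial genome in WT and 0.893% ± 0.0422 in UBR4 mKO muscles, and at 24 months 0.958% ± 0.0426 and 0.945% ± 0.0382. The genotypes thus differed by less than 1 SD at each age. Subunits of one complex were not equally abundant. The 14 eIF3 genes ranged from 29.9 TPM (Eif3j1) to 136 TPM (Eif3h), and the eIF2 subunits stood at 17.8 TPM for Eif2s1, the alpha subunit that stress kinases phosphorylate, and 46.7 TPM for Eif2s2, the beta subunit. Of the 5 subunits of eIF2B, which recharges eIF2 with GTP, Eif2b3 was at 4.91 TPM and the other 4 between 23.5 and 27.1 TPM. Eif5a, which helps ribosomes past difficult peptide bonds, stood at 215 TPM. Among the eIF2 kinases, Eif2ak1 was at 14.7 TPM and the other 3 between 1.45 and 1.67 TPM. Eif4g2, a relative of the eIF4G scaffold that does not bind the cap-binding protein, led the eIF4F group at 137 TPM. The exon junction helicase Eif4a3 (19.3 TPM), the eIF4E binder Eif4ebp2 (38.1 TPM) and Eef2k (14.0 TPM), the kinase that inhibits eEF2, led their own groups. These ranks hold among the 62 genes, which do not include every eIF4E binder.

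**Figure D1:**
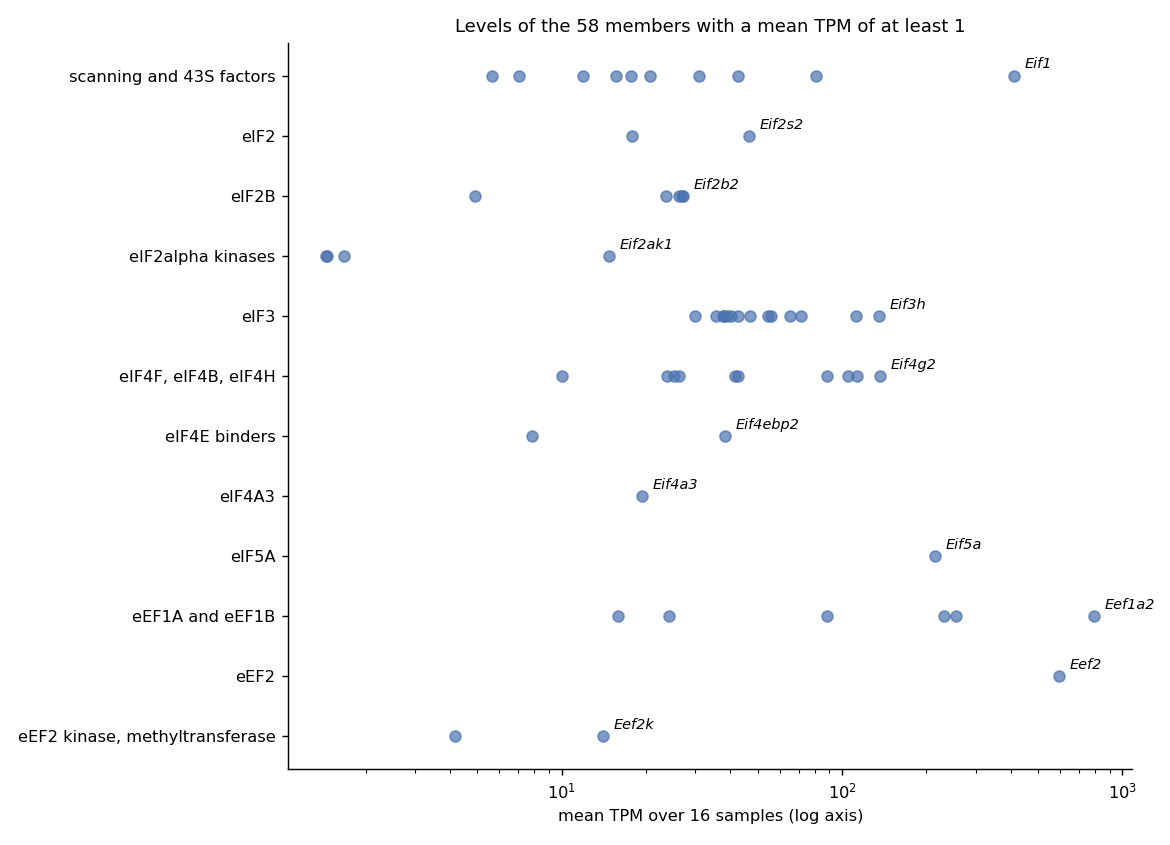
Mean TPM over the 16 samples (x axis, logarithmic) of the 58 tested factors, with 1 row per role and the most abundant member of each role named. The elongation factors Eef1a2 and Eef2 lie highest, at 792 and 595 TPM, and 3 of the 4 eIF2 kinases lie lowest, at 1.45 to 1.67 TPM.

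Within groups the median spread of the factors was lower than that over all genes tested, which were not matched to them for abundance. The median SD of their log2 values was 0.14 in WT and 0.11 in UBR4 mKO at 6 months and 0.11 and 0.16 at 24 months, against 0.22, 0.14, 0.13 and 0.22 in the same order over all 10628 genes tested. The widest spread was that of Eif4ebp2 in 24-month-old UBR4 mKO samples, with an SD of 0.94. Its values there were 54.4, 45.3, 12.99 and 43.1 TPM, so replicate 3 alone was low.

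Before the values, the promoter sequences of the 4 genes on which the comparisons turn are shown, so that the copies of eEF1A and the initiation genes that moved in opposite directions can be set side by side. Each line gives 60 bases before and 30 bases from the start annotated by RefSeq on GRCm38.p6, on the minus strand, with capitals marking a match on either strand to TATATA, to the related TATAAA, to the E-box CACGTG or to the composite element TGATGNAA.
Eef1a1: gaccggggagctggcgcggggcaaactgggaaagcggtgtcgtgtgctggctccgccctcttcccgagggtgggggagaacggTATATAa
Eef1a2: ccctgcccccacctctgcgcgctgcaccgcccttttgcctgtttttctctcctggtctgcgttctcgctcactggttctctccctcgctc
Eif3a: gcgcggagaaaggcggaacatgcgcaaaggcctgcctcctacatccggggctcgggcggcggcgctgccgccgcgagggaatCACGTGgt
Eif2s2: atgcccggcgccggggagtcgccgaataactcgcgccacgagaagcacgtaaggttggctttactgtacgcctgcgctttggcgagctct

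They lie at chr9:78481695-78481784 (Eef1a1), chr2:181156986-181157075 (Eef1a2), chr19:60790664-60790753 (Eif3a) and chr2:154892877-154892966 (Eif2s2). The Eef1a1 stretch held TATATA at position 24, counted with the annotated start as 1. The Eif3a stretch held CACGTG, which Myc family factors can bind, at position 23. None of the 4 motifs was found in the full windows of Eef1a2 and Eif2s2, which span 250 bases before to 50 after the start. RefSeq windows of this length were at hand for 49 of the 62 factors, with 64 windows in all. Of these, 14 (21.9%) held CACGTG, against 7.15% of all 32851 promoter windows. For TATATA the shares were 2 of 64 (3.12%) and 5.67%, for TATAAA 4 of 64 (6.25%) and 13.6%, and for TGATGNAA, the composite element bound by ATF4, 1 of 64 (1.56%) and 3.97%. The 12 genes with CACGTG included Eef2, Eif4e, Eif4g1, Eif4a1 and Eif5a. A match describes letters in a window and is not a binding site.

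Whether loss of UBR4 changes the transcripts of the translation machinery was first read at 6 months. On both scales Eef1a1 and the eIF3 scaffold subunit Eif3a rose and the eIF2 beta subunit Eif2s2 fell in UBR4 mKO muscles. Of the 58 log2 differences, 53 were above 0 on the TPM scale and 11 after rescaling. On the TPM scale, 18 of the 58 tested factors (31.0%) were called higher, against 43.7% of all genes tested, and 1 was called lower, against 1.15%. The median log2 fold change of the factors was 0.19, below the 0.33 of all genes. After rescaling, 2 factors were called higher and 12 (20.7%) lower, against 6.66% and 10.2% of all genes, with a median of -0.16 against -0.02. The direction of most calls thus followed the scale, and 3 of the 19 TPM calls and 14 rescaled calls were shared. Calls are from limma at an adjusted p under 0.05 over all 10628 genes. The counts moved by over 1.5 times when single libraries were left out. Such counts have no share of all genes beside them, here and below, and show only how far calls moved. On the TPM scale the total was 29 and 11 without WT replicates 2 and 4 and 12 without UBR4 mKO replicate 4. After rescaling it was 5, 9 and 7 without UBR4 mKO replicates 1, 2 and 3, 9 and 7 without WT replicates 1 and 4, and 24 without UBR4 mKO replicate 3 of the 24-month-old mice, which enters through the shared estimate of the spread.

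**Figure D2:**
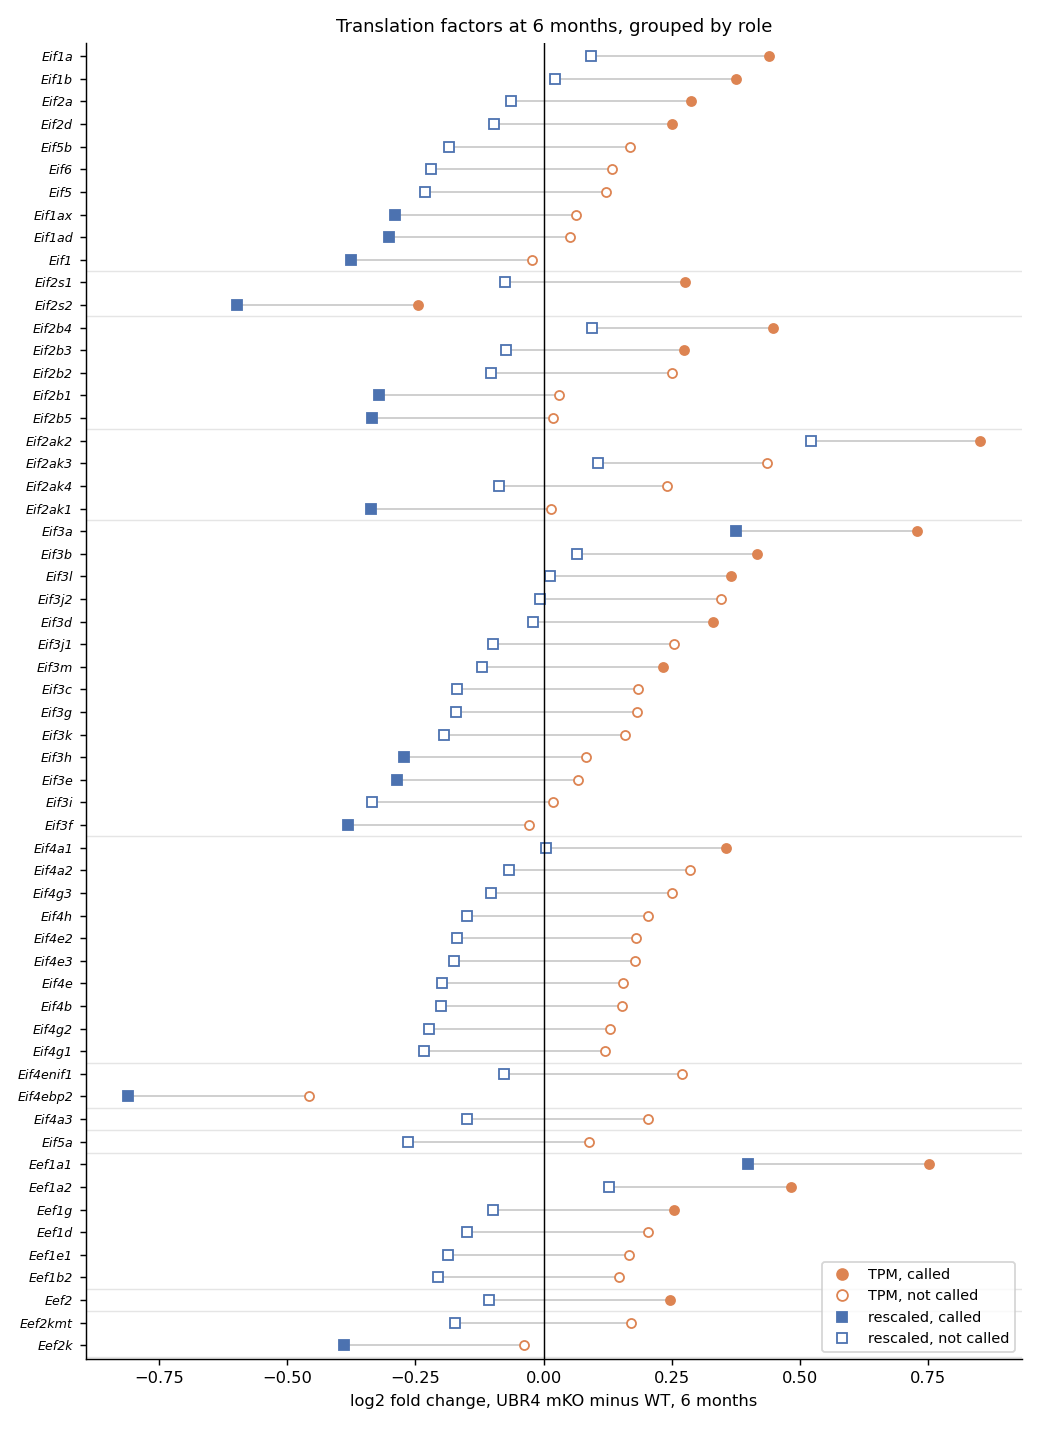
Log2 fold change of UBR4 mKO against WT at 6 months (x axis) for the 58 tested factors, grouped by role, on the TPM scale (circles) and after median-of-ratios rescaling (squares). Filled symbols passed limma's test. Rescaling shifted every gene to the left, and Eef1a1, Eif3a and Eif2s2 are filled on both scales.

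Eef1a1 (ENSMUSG00000037742.14, chromosome 9, 78478449 to 78489151, minus strand) was measured at 158, 174, 197 and 164 TPM in 6-month-old WT muscles. The 6-month-old UBR4 mKO muscles had 348, 288, 292 and 245 TPM. All 4 mutant values lay above all 4 control values, and WT replicate 3 was closest to the mutants. Eef1a1 rose by a log2 value of 0.75 (standard error 0.10, adjusted p = 0.000133 by limma), or 1.68-fold. After rescaling it was 0.40 (standard error 0.13, adjusted p = 0.0419) and the groups overlapped, with mutant replicate 4 at 209 and WT replicate 3 at 230 rescaled TPM. The TPM call was made in 16 of 16 fits that each left out a sample and the rescaled call in 8 of 16. The rescaled adjusted p was 0.142, 0.0911 and 0.0880 without UBR4 mKO replicates 1, 2 and 3, 0.117 and 0.107 without WT replicates 1 and 2, and 0.0504 to 0.0539 without replicates 1 and 4 of the older WT or replicate 2 of the older UBR4 mKO mice. GENCODE holds 15 pseudogenes at least 90% identical to Eef1a1, and the 8 of them in the table were at 0 TPM in all samples.

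Eef1a2 (ENSMUSG00000016349.10, chromosome 2, 181147653 to 181157014, minus strand), the muscle form, was measured at 627, 700, 629 and 552 TPM in WT and at 856, 860, 843 and 934 TPM in mutant muscles at 6 months. There was no overlap here either. On the TPM scale it rose by a log2 value of 0.48 (standard error 0.09, adjusted p = 0.000965). The rescaled log2 difference of 0.13 (standard error 0.10, adjusted p = 0.393) did not pass the test.

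**Figure D3:**
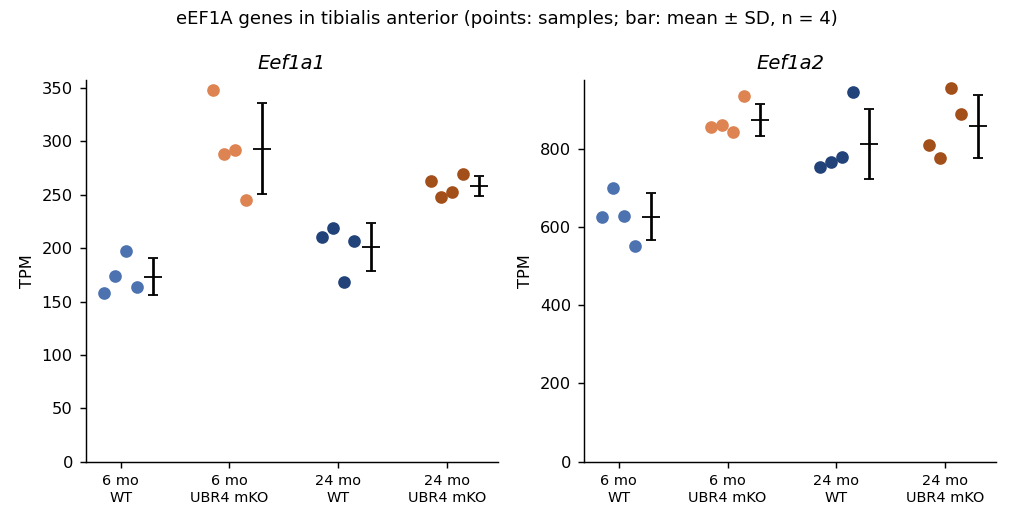
TPM (y axis, from 0) of Eef1a1 and Eef1a2 in each sample of the 4 groups, with the mean and SD (n = 4). For Eef1a1, the 6-month-old UBR4 mKO samples (245 to 348 TPM) lie above the WT samples of that age (158 to 197 TPM). For Eef1a2, they lie at 843 to 934 TPM against 552 to 700 TPM.

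The balance between the forms was compared as the log2 ratio of Eef1a2 to Eef1a1, which scaling between samples leaves nearly unmoved. At 6 months Eef1a1 made up 21.7% ± 1.98 (SD, n = 4) of the pair in WT and 25.1% ± 3.34 in UBR4 mKO muscles, and at 24 months 19.9% ± 2.42 and 23.2% ± 1.62. Its share was thus higher on average in mutants at both ages, but the groups overlapped. The log2 ratio was 1.85 ± 0.17 in WT and 1.59 ± 0.26 in UBR4 mKO at 6 months, a difference of -0.27 (exact permutation test, two-sided, p = 0.143, adjusted p = 0.286 over 20 tests). At 24 months it was 2.01 ± 0.22 and 1.73 ± 0.13, a difference of -0.29 (exact permutation p = 0.0857, adjusted 0.254). Between 6 and 24 months the ratio differed by 0.16 in WT (exact permutation p = 0.286) and by 0.14 in UBR4 mKO (exact permutation p = 0.343). With 4 against 4 samples the smallest p this test can give is 0.0286.

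Eef1a1 is used by the other cell types of muscle, so their markers are set beside it. The summed level of the leukocyte markers Ptprc, Cd68, Adgre1, Csf1r, Lyz2 and C1qa was 16.2 to 24.1 TPM in WT and 53.1 to 187 TPM in UBR4 mKO samples at 6 months, and 29.7 to 62.8 TPM and 75.4 to 311 TPM at 24 months. At 6 months, 5 of the 5 leukocyte markers tested rose on both scales. Regeneration and satellite cell markers summed to 14.5 to 20.6 TPM in WT and 25.9 to 36.3 TPM in UBR4 mKO muscles at that age, with 2 of 3 tested higher on each scale. Slow myofiber markers (1 of 5) and fibroblast markers (3 of 6 on the TPM scale, 1 of 6 rescaled) also rose, and 4 of 6 endothelial markers rose on the TPM scale and 0 rescaled. Of the 8 myofiber markers, 4 rose on the TPM scale, and 1 rose and 2 fell after rescaling. None of the 2 adipocyte or 5 blood markers passed the test, and 1 of 4 Schwann cell markers was lower after rescaling. No marker of any list was at 0 in all samples. The part of these cells in the Eef1a1 result was not tested.

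Eif3a (ENSMUSG00000024991.8, chromosome 19, 60761117 to 60790658, minus strand) encodes the scaffold on which eIF3 is built. Its level was 36.5, 42.8, 30.6 and 26.1 TPM in 6-month-old WT and 57.5, 52.4, 54.8 and 57.01 TPM in 6-month-old UBR4 mKO muscles. The mutants were close together and all above the controls, among which replicate 4 was lowest. Eif3a rose by a log2 value of 0.73 (standard error 0.15, adjusted p = 0.00214) on the TPM scale and of 0.38 (standard error 0.10, adjusted p = 0.0145) after rescaling, without overlap on either scale. The rescaled call was lost in 1 of 16 fits, with an adjusted p of 0.0523 without UBR4 mKO replicate 1. On the TPM scale 5 of the 14 were called higher (Eif3a, Eif3b, Eif3d, Eif3l and Eif3m), a share below the 43.7% of all genes, and after rescaling Eif3a alone was higher while Eif3e, Eif3f and Eif3h were lower. The rescaled log2 difference of Eif3b, for example, was 0.06 (adjusted p = 0.665) and that of Eif3f -0.38 (adjusted p = 0.0399).

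Eif2s2 (ENSMUSG00000074656.12, chromosome 2, 154871410 to 154892935, minus strand) fell where most genes had higher TPM. It was measured at 49.2, 49.2, 42.6 and 42.6 TPM in 6-month-old WT and at 35.8, 38.0, 36.7 and 44.7 TPM in 6-month-old UBR4 mKO muscles. The groups overlapped on the TPM scale through mutant replicate 4, with a log2 fold change of -0.24 (standard error 0.09, adjusted p = 0.0322). After rescaling, WT samples lay between 48.8 and 59.4 and mutants between 33.6 and 38.2, a log2 fold change of -0.60 (standard error 0.08, adjusted p = 0.000186). The rescaled call was made in 16 of 16 fits without a sample and the TPM call in 11 of 16, with adjusted p-values of 0.0567 to 0.0907 without WT replicates 1 or 2 or UBR4 mKO replicates 1, 2 or 3. The TPM call was also lost when only the groups compared were fitted (adjusted p = 0.0571) and by Dunn's test (adjusted p = 0.325). Its partner Eif2s1 had log2 differences of 0.28 on the TPM scale (adjusted p = 0.0198) and -0.08 after rescaling (adjusted p = 0.522).

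**Figure D4:**
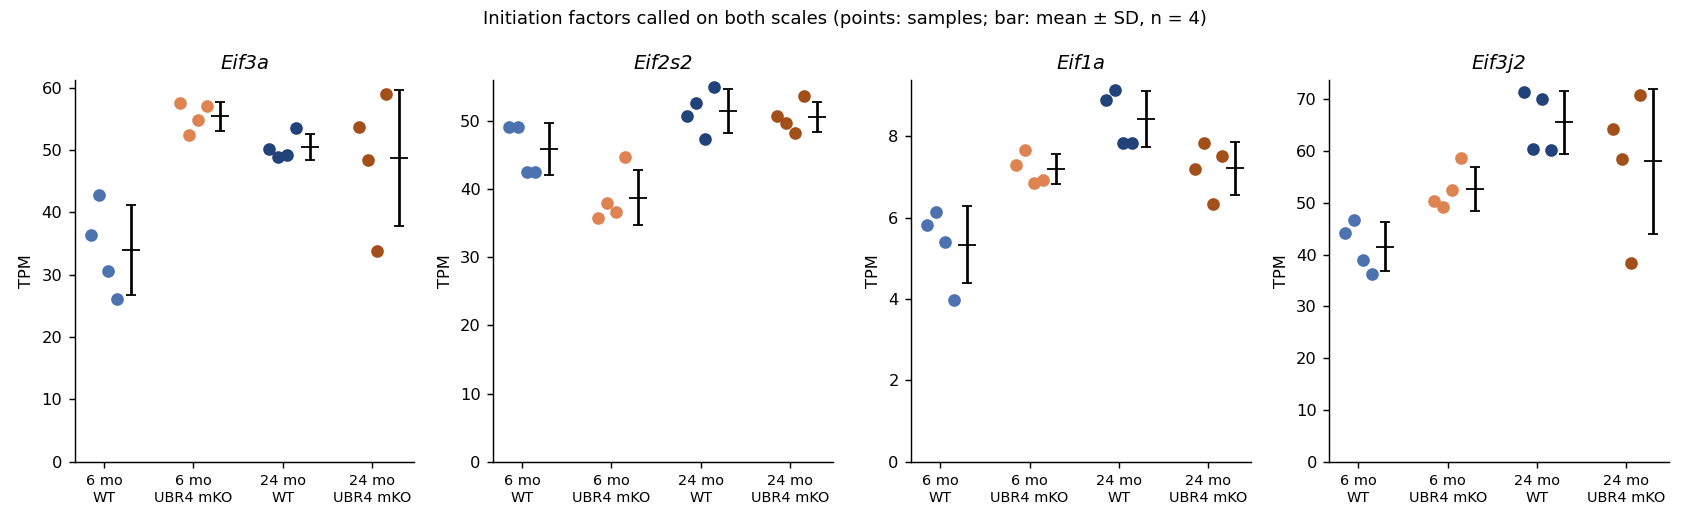
TPM (y axis, from 0) of Eif3a, Eif2s2, Eif1a and Eif3j2 in each sample of the 4 groups, with the mean and SD (n = 4). Eif3a is high in the 6-month-old UBR4 mKO samples (52.4 to 57.5 TPM against 26.1 to 42.8 TPM in WT), Eif2s2 is low in 3 of those 4, and replicate 3 of the older UBR4 mKO mice is the lowest of its group in each panel.

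The other 11 factors called after rescaling alone at 6 months were all lower in UBR4 mKO muscles. They were Eif1, Eif1ad and Eif1ax of the scanning group, Eif2b1 and Eif2b5 of eIF2B, the kinases Eif2ak1 and Eef2k, Eif3e, Eif3f, Eif3h and Eif4ebp2. Their rescaled groups did not overlap, but their TPM log2 differences, between -0.46 and 0.08, did not pass the test. Eif4ebp2, which restrains the cap-binding protein, was measured at 36.5, 42.2, 36.5 and 33.4 TPM in WT and 23.7, 26.0, 25.5 and 33.6 TPM in UBR4 mKO muscles, so 3 of the 4 mutants lay below all WT samples. Its rescaled log2 fold change was -0.81 (standard error 0.27, adjusted p = 0.0471) and its TPM log2 difference -0.46 (adjusted p = 0.201). The missing TPM call rests on replicate 3 of the older mutants, at 12.99 TPM. Without it Eif4ebp2 was called lower on both scales, with adjusted p-values of 0.00418 (TPM) and 5.2e-05 (rescaled). The largest TPM rise among the 58 was that of Eif2ak2 (PKR, the kinase activated by double-stranded RNA), a gene chosen after its values were seen. It stood at 1.14 ± 0.22 TPM (SD, n = 4) in WT and 2.14 ± 0.49 TPM in UBR4 mKO muscles, with log2 values of 0.85 (standard error 0.24, adjusted p = 0.0111) on the TPM scale and 0.52 (standard error 0.20, adjusted p = 0.0871) after rescaling, and without overlap on both. Without replicate 3 of the older mutants Eif2ak2 passed the rescaled test too (0.52, adjusted p = 0.0207). For eEF2, Eef2 was measured at 440 to 563 TPM in WT and 534 to 682 TPM in UBR4 mKO muscles, and its TPM rise of 0.25 (adjusted p = 0.0411) became a rescaled log2 difference of -0.11 (adjusted p = 0.314).

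At 24 months the genotypes differed in none of the 58 factors by limma on either scale, where 0.630% of all genes on the TPM scale and 0.913% after rescaling were called. At an unadjusted p under 0.05 there were 3 factors on the TPM scale (Eef1a1, Eif1b and Eif3j1) and 5 after rescaling, and Dunn's test called 0 of 58 with 1 at an unadjusted p under 0.05. The share of all genes at that p is not given, here or below, so these counts are not read as results. Eef1a1 had the smallest TPM p. It was measured at 210, 219, 168 and 207 TPM in WT and 263, 248, 253 and 270 TPM in UBR4 mKO muscles. The mutants were all above WT, and the log2 difference of 0.37 (standard error 0.10) had an adjusted p of 0.151 by limma. The rescaled log2 difference was 0.35 (adjusted p = 0.232), and the TPM value without UBR4 mKO replicate 3 was 0.38 (adjusted p = 0.165). Eef1a2 stood at 753, 767, 780 and 945 TPM in WT and 809, 777, 956 and 889 TPM in UBR4 mKO muscles. Here they overlapped, with a log2 difference of 0.08 (adjusted p = 0.876). Eif3a, at 48.9 to 53.5 TPM in WT, had 53.6, 48.5 and 59.1 TPM in 3 mutants and 33.7 TPM in replicate 3, and Eif2s2 stood at 47.4 to 55.1 TPM in WT and 48.3 to 53.7 TPM in UBR4 mKO muscles. Without UBR4 mKO replicate 3, 0 factors were called on either scale.

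Age was compared next, within each genotype. These comparisons share their 6- or 24-month-old samples with those above. In WT muscles, 21 of the 58 factors (36.2%) were called higher at 24 than at 6 months on the TPM scale, against 24.0% of all genes, and 0 lower, against 1.07%. All 58 TPM log2 differences were above 0, with a median of 0.24 beside 0.26 for all genes. After rescaling, 3 factors were higher and 1 lower, against 4.44% and 5.33% of all genes, and the median was -0.03. The TPM count was 40 without replicate 2 of the younger WT, 34 without replicate 3 of the older UBR4 mKO, and 8 to 13 without replicates 1, 3 or 4 of the younger or 1 or 4 of the older WT samples, and Dunn's test called 0 with 27 at an unadjusted p under 0.05. The rescaled count was 1 or 2 without replicates 1, 3 or 4 of the younger WT, replicate 2 of the younger UBR4 mKO or any of the older WT samples.

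The 3 factors that rose with age in WT on both scales belong to initiation. Eif1a (ENSMUSG00000057561.10, on chromosome 18) encodes eIF1A, which holds the initiator tRNA in place during scanning. It was measured at 5.81, 6.13, 5.41 and 3.99 TPM at 6 months and 8.90, 9.13, 7.84 and 7.83 TPM at 24 months, with no overlap. The log2 fold change was 0.66 (standard error 0.12, adjusted p = 0.00184) and the rescaled one 0.39 (standard error 0.09, adjusted p = 0.0105), and both calls were made in 16 of 16 fits without a sample. GENCODE lists 12 genes with stretches at least 90% identical to Eif1a, and the 10 of them in the table were at 0 TPM. Eif3a rose by a log2 value of 0.59 (adjusted p = 0.0132) and of 0.32 after rescaling (adjusted p = 0.0469), the latter called in 3 of 16 fits without a sample (those without WT replicate 2 of the younger or UBR4 mKO replicates 3 or 4 of the older mice), with an adjusted p of 0.0501 to 0.14 in the others. The TPM call was lost without WT replicate 4 of the younger mice (adjusted p = 0.0584). Dunn's test called none of the 3, with adjusted p-values of 0.12 to 0.224. With the mitochondrial genome left out of the TPM sum, the calls of Eif3a (0.40, adjusted p = 0.0978) and Eif3j2 (0.47, adjusted p = 0.0614) were lost. Markers of other cells moved in the same comparison. With age in WT, 2 of 6 fibroblast and 1 of 5 slow myofiber markers fell on each scale, 4 of 6 endothelial markers fell after rescaling, and 3 of 5 leukocyte markers rose on the TPM scale and 1 after rescaling. Of the 3 regeneration markers 1 rose on each scale, of the 4 Schwann cell markers 2 rose on the TPM scale, and of the 8 myofiber markers 6 rose and 2 fell on the TPM scale and 1 rose and 2 fell after rescaling. Their part in the age results was not tested.

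Eif3j2 (ENSMUSG00000043424.10, on chromosome 18) encodes the loosely attached eIF3 subunit j. It was measured at 44.2, 46.6, 39.0 and 36.2 TPM at 6 months and 71.5, 60.4, 70.1 and 60.2 TPM at 24 months in WT muscles. It rose by a log2 value of 0.66 (standard error 0.15, adjusted p = 0.00643) on the TPM scale and 0.39 (standard error 0.11, adjusted p = 0.0361) after rescaling, the latter called in 11 of 16 fits without a sample, with adjusted p-values of 0.0715 to 0.102 without WT replicates 2, 3 or 4 of the younger or 1 or 3 of the older mice. Its 2379 bases are 99.4% identical to a stretch of Eif3j1, so reads of the pair cannot be placed with certainty and the split between them is uncertain. Eif3j1 stood at 22.4 to 30.6 TPM and 20.3 to 35.2 TPM in the same samples (log2 difference 0.05, adjusted p = 0.809). Their sum was 58.6 to 77.2 TPM at 6 months and 90.4 to 95.9 TPM at 24 months, again without overlap.

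Eef1a2 rose with age in WT on the TPM scale, by a log2 value of 0.37 (standard error 0.09, adjusted p = 0.00944), with a rescaled difference of 0.10 (adjusted p = 0.574) and 0.18 with the mitochondrial genome left out (adjusted p = 0.0884). The 24-month-old values included the 945 TPM of replicate 4, against 753 to 780 TPM in the other 3. Eef1a1 differed by 0.21 on the TPM scale (adjusted p = 0.123) and by -0.06 after rescaling (adjusted p = 0.796), so neither scale gave a call and the sign changed with the scale. Without replicate 3 of the older WT its TPM difference was 0.30 (adjusted p = 0.0482). Eif4e, the cap-binding protein, was the factor lower with age after rescaling, by a log2 value of -0.26 (adjusted p = 0.038), while its TPM difference was 0.02 (adjusted p = 0.874).

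In UBR4 mKO muscles, 1 factor was called higher at 24 than at 6 months on the TPM scale and 0 lower, against 2.45% and 3.85% of all genes. After rescaling, 3 were higher and 0 lower, against 5.97% and 5.30%. The factor called on both scales was Eif2s2, at 35.8, 38.0, 36.7 and 44.7 TPM at 6 months and 50.8, 49.7, 48.3 and 53.7 TPM at 24 months. All older mutants lay above all younger ones. Its log2 fold change was 0.39 (standard error 0.09, adjusted p = 0.0116) and the rescaled one 0.45 (standard error 0.08, adjusted p = 0.00168), and both calls were made in 16 of 16 fits without a sample. By Dunn's test the adjusted p was 0.383. In the same comparison 4 of 6 endothelial, 3 of 6 fibroblast and 1 of 5 slow myofiber markers fell on each scale. Of the 3 regeneration markers 1 rose and 1 fell on each scale, 1 of 2 adipocyte markers rose after rescaling, and of the 8 myofiber markers 3 rose and 3 fell on the TPM scale and 1 rose and 2 fell after rescaling. Their part in the result was not tested. Eef2k (0.41, adjusted p = 0.00975) and Eif1 (0.34, adjusted p = 0.0382) rose after rescaling alone. Without replicate 3 of the older mutants, 2 factors were called on the TPM scale (Eif2s2 and Eif4ebp2). After rescaling 8 were higher and 1 lower, with the share of all genes called in that fit not given. Eif2s2 and Eef2k were among these, and Eif1 was not (adjusted p = 0.0667). Eif4ebp2 then rose with age by 0.81 on each scale (adjusted p = 0.000786 and 0.000194), whereas with all samples its differences were 0.35 (adjusted p = 0.591) and 0.40 (adjusted p = 0.37). The TPM count was also 2 without replicate 4 of the younger mutants. Dunn's test called 0, with 3 at an unadjusted p under 0.05. Eef1a1 differed by -0.17 (adjusted p = 0.397) on the TPM scale and by -0.11 (adjusted p = 0.622) after rescaling. Eef1a2 differed by -0.03 (adjusted p = 0.907) and, after rescaling, by 0.03 (adjusted p = 0.894), so its sign followed the scale.

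The interaction term tested whether the genotype difference itself changed with age. On the TPM scale, 2 of 58 factors were called, Eif3a and Eif1a, both with a mutant minus WT difference that was above 0 at 6 months (0.73 and 0.44) and below 0 at 24 months (-0.08 and -0.22, neither called), against 4.58% of all genes (0.122% in the other direction). The sign of Eif3a at 24 months was set by replicate 3 of the older mutants, without which the difference was 0.09 on the TPM scale and 0.00677 after rescaling. The interactions were those of Eif3a (-0.81, standard error 0.22, adjusted p = 0.0417) and Eif1a (-0.66, standard error 0.17, adjusted p = 0.0396), whose rescaled values of -0.48 and -0.34 had adjusted p-values of 0.0806 and 0.162. After rescaling, Eif2s2 alone was called. Its mutant minus WT difference was -0.60 at 6 months and -0.04 at 24 months, so the lower level in young mutants was nearly gone in old ones, with an interaction of 0.55 (standard error 0.11, adjusted p = 0.0153), against 1.02% of all genes called in that direction and 0.969% in the other. Its TPM value was 0.22 (adjusted p = 0.213). The Eif2s2 call was made in 16 of 16 fits without a sample, those of Eif3a and Eif1a in 5 and 3. The TPM count was 14 without replicate 2 of the younger WT, 5 without replicate 3 and 2 without replicate 4 of the older UBR4 mKO, and 0 or 1 without any other sample. The rescaled count was 2 without replicate 4 of the younger or replicates 1, 3 or 4 of the older UBR4 mKO samples. Without replicate 3 the added factor was Eif4ebp2, whose rescaled interaction was then 0.68 (adjusted p = 0.0121) and with all samples 0.28 (adjusted p = 0.724). For Eef1a1 and Eef1a2 the TPM interactions were -0.38 (adjusted p = 0.109) and -0.40 (adjusted p = 0.0697), and the rescaled ones -0.05 and -0.07 (adjusted p = 0.901 and 0.825). The TPM interaction of Eef1a2 passed the test without replicate 3 of the older mutants (-0.45, adjusted p = 0.039) and without replicate 2 of the younger WT (-0.46, adjusted p = 0.0242).

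The other pairs of related genes were compared in the same way, as ratios within a sample. Eif1b stayed a minor form beside Eif1. The log2 ratio of Eif1b to Eif1 was -3.44 ± 0.02 (SD, n = 4) in WT and -3.04 ± 0.12 in UBR4 mKO muscles at 6 months, and -3.30 ± 0.13 and -3.28 ± 0.06 at 24 months. Of 20 genes with stretches nearly identical to Eif1, the 14 in the table together held 16.6 TPM, the sum of their means over the 16 samples. All of it came from Emd, a protein-coding gene in which 662 aligned bases (49.5% of its length) were 96.7% identical to Eif1. The others in the table, all pseudogenes, were at 0 TPM. Reads of the shared stretch may be counted at either gene, and the part of such reads in the Emd value was not tested. The ratio was higher in the mutants at 6 months by 0.40 without overlap of the groups (exact permutation p = 0.0286, adjusted p = 0.143 over 20 tests) and differed between 24 and 6 months in the mutants by -0.24 (exact permutation p = 0.0286, adjusted 0.143), whereas the genotypes overlapped at 24 months (difference 0.02, exact permutation p = 0.771). Eif4g3 and Eif4g1 encode eIF4G scaffolds. Their log2 ratio was -2.37 ± 0.02 in WT and -2.24 ± 0.04 in UBR4 mKO muscles at 6 months, and -2.25 ± 0.08 and -2.10 ± 0.16 at 24 months. The 6-month-old WT samples lay below those of both groups compared with them, by 0.13 and 0.12 (exact permutation p = 0.0286 for each, adjusted 0.143). Of the 20 ratio tests 0 passed after adjustment, 4 reached the smallest p that the design allows, and the Eif4a2 to Eif4a1 and Eif5a2 to Eif5a ratios overlapped between all groups compared. With that smallest p, the adjustment can be passed only if many of the 20 tests reach it. The 0 is therefore not read as an absence of change. Eif5a2 never exceeded 0.83 TPM, and Eif5a made up at least 99.6% of its pair in every sample.

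**Figure D5:**
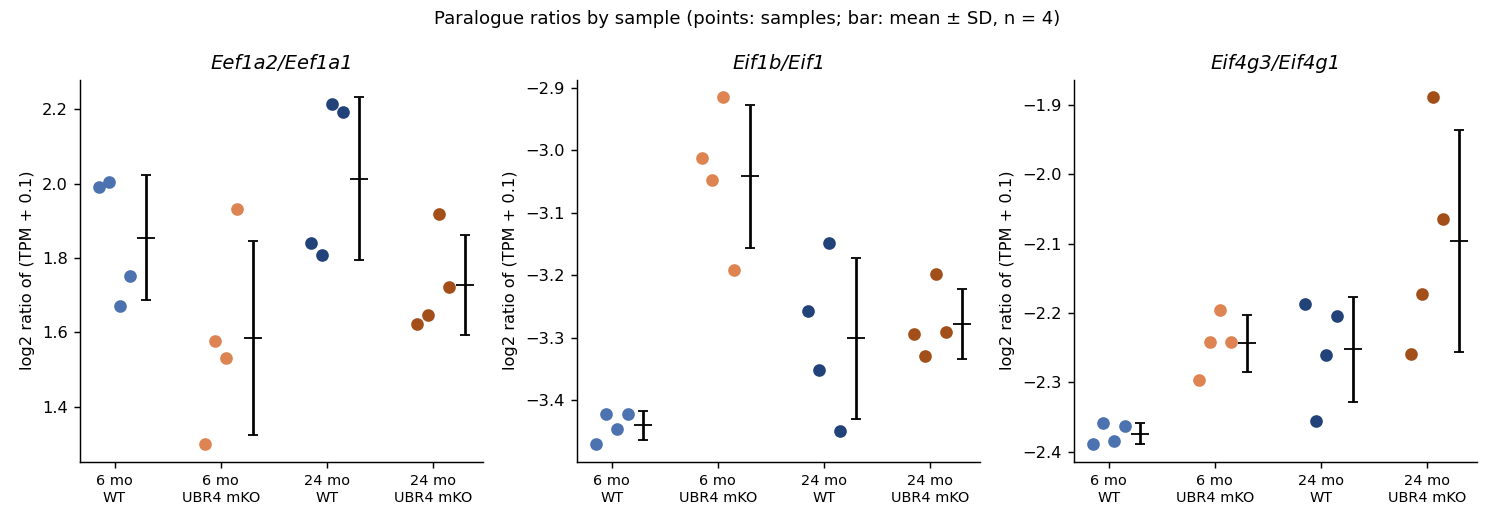
Log2 ratios of Eef1a2 to Eef1a1, Eif1b to Eif1 and Eif4g3 to Eif4g1 (y axis, from TPM + 0.1) in each sample of the 4 groups, with the mean and SD (n = 4). The Eef1a2 to Eef1a1 ratio overlaps between genotypes at both ages, while the Eif1b to Eif1 ratio of 6-month-old UBR4 mKO samples lies above that of the WT samples of that age, at -3.04 ± 0.12 against -3.44 ± 0.02.

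Genes that act with the factors were read from lists. Their counts at 6 months stand beside 43.7% of all genes called higher on the TPM scale, and 6.66% higher and 10.2% lower after rescaling. Of 12 genes of the mTORC1 kinase pathway, which controls cap-dependent initiation, 4 rose in UBR4 mKO muscles at 6 months on the TPM scale, fewer than the share of all genes, and 2 fell after rescaling (Akt1s1 and Rheb). In WT, 1 of the 12 rose with age on both scales, beside 24.0% (TPM) and 4.44% (rescaled) of all genes. This was Deptor, an inhibitor of the mTOR kinase, at 5.44 ± 1.23 TPM (SD, n = 4) at 6 and 12.6 ± 0.945 TPM at 24 months (log2 1.22, adjusted p = 0.000328, and 0.95 after rescaling, adjusted p = 0.00132). The calls of Deptor and of Mknk2, described next, were made on each scale in 16 of 16 fits without a sample. Among 9 genes of poly(A)-binding proteins, their partners, MNK kinases and helicases, 5 rose at 6 months in mutants on the TPM scale and 0 after rescaling. Mknk2, a kinase that phosphorylates the cap-binding protein, rose with age in WT from 89.9 ± 15.4 to 178 ± 32.1 TPM (log2 0.98, adjusted p = 0.000398, and 0.71 after rescaling, adjusted p = 0.00516). Pabpc1, the main cytoplasmic poly(A)-binding protein, fell with age in UBR4 mKO muscles from 19.1 ± 1.22 to 14.8 ± 1.61 TPM (log2 -0.38, adjusted p = 0.0412, and -0.32 after rescaling, adjusted p = 0.0209). Without replicate 3 of the older mutants these adjusted p-values were 0.0941 and 0.0299. The TPM call was made in 6 of 16 fits without a sample, with an adjusted p of up to 0.12, and the rescaled call was lost without UBR4 mKO replicates 1, 2 or 3 of the younger mice (adjusted p = 0.0587 to 0.0733).

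Targets of the integrated stress response, the programme that follows eIF2 phosphorylation, were tested for 12 of 18 listed genes. At 6 months, 1 rose in UBR4 mKO muscles on the TPM scale (Shmt2), beside 43.7% of all genes. After rescaling 4 fell (Atf4, Atf5, Ddit3 and Cebpg), beside 10.2% of all genes. The medians on the TPM scale and after rescaling were 0.09 and -0.26, beside 0.33 and -0.02 for all genes. At 24 months, Mthfd2, an enzyme of mitochondrial folate metabolism, was the gene of the list that rose on both scales. It was measured at 2.53, 2.67, 1.57 and 2.25 TPM in WT and 3.43, 4.90, 5.78 and 7.71 TPM in UBR4 mKO muscles. All mutant values were above all WT values (log2 1.21, standard error 0.21, adjusted p = 0.0213, and 1.19 after rescaling, adjusted p = 0.0162). The calls were lost on both scales without WT replicates 3 or 4 of that age (adjusted p = 0.0543 to 0.0852) and on the TPM scale without UBR4 mKO replicate 4 (adjusted p = 0.0671). Mthfd2 also rose with age in the mutants, by 1.54 on the TPM scale (adjusted p = 0.000336) and by 1.59 after rescaling, and was also called without replicate 3 of the older mutants. Asns, the enzyme that makes asparagine, was measured at 0.572 ± 0.0964 TPM (SD, n = 4) in WT and 0.744 ± 0.25 TPM in UBR4 mKO muscles at 6 months, and at 1.19 ± 0.369 and 1.64 ± 0.328 TPM at 24 months. Its mean over the 16 samples, 1.04 TPM, passed the minimum of 1 TPM only through the older groups, so its test between ages is not given. On the TPM scale, 5 genes of the list were called higher with age in WT, beside 24.0% of all genes. Asns and Aldh18a1, which makes a precursor of proline, were among them. Both met the minimum of 1 TPM through the older groups, so the count is not read as a rise of the list. After rescaling, where 4.44% of all genes were higher and 5.33% lower, Ddit3 and Cebpg were lower and only Aldh18a1 was called higher. The Aldh18a1 values of WT at 24 months were 1.78, 5.28, 1.46 and 2.02 TPM, so replicate 2 was far above the others. At 6 months its means were 0.919 ± 0.178 TPM in WT and 1.01 ± 0.149 TPM in UBR4 mKO muscles. With a mean of 1.54 TPM over all samples, it passed the minimum of 1 TPM through the older groups, so its test between ages is not given.

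Of 9 mitochondrial translation factors, 7 rose in 6-month-old UBR4 mKO muscles on the TPM scale (43.7% of all genes), while after rescaling 0 rose and 2 fell (Gfm2 and Mtrf1). Their median log2 difference on the TPM scale was 0.31, beside 0.33 for all genes. The counts were 3 and 0 higher, with 2 lower after rescaling, for 7 tested genes of termination and ribosome recycling, a share on the TPM scale close to that of all genes, and 1 and 0 higher, with 1 lower after rescaling, for 8 enzymes that modify eIF5A and eEF2. Of the genes for selenocysteine insertion, Secisbp2, whose protein binds the selenocysteine element of mRNAs, rose with age in WT on both scales, from 3.30 ± 0.935 to 5.06 ± 0.499 TPM (log2 0.64, adjusted p = 0.0139, and 0.37 after rescaling, adjusted p = 0.0468). The rescaled call was made in 5 of 16 fits without a sample (adjusted p of up to 0.152), and the TPM call was lost without replicate 4 of the younger or of the older WT (adjusted p = 0.056 and 0.0522).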

How the data were processed

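The authors prepared poly(A) RNA libraries, trimmed the paired-end reads, aligned them to GRCm38 (mm10) and deposited TPM values per gene, made with CLC Genomics Workbench. The study's methods and the labels name different TruSeq kits, the latter stranded, and the counting of multi-mapping reads is not given in the sources used here. TPM keeps no depth, so precision rests on 4 samples per group. Values were transformed as log2(TPM + 0.1), which understates changes of low genes, and the 10628 genes averaging 1 TPM or more were fitted with limma 3.58.1 in R 4.3.3, with a variance trend, 1 coefficient per group and no covariate. P-values were adjusted over these genes by the Benjamini-Hochberg method (threshold 0.05). Median-of-ratios factors (0.717 to 1.17) came from 14470 genes above 0 in every sample. Ratios were compared by exact two-sided permutation over 70 assignments. Named are Eef1a1 and Eef1a2, up to 4 rises and 4 falls called on both scales per comparison, the most abundant member of each role, and up to 2 genes per pathway list and comparison called on both scales. Other genes, named within short counts, were chosen after their values were seen. The members and lists were chosen with earlier results of these data known. Near-identical genes were sought with blastn 2.17.0 (at least 90% identity) in GENCODE vM21, which also gave positions. Alternatives were other pseudocounts, filters, scalings, variance settings, Dunn's test, a replicate block and leaving out samples; rescaling combined with the latter pair was added after seeing the data. The fit and the permutation test were tested on simulated data. Figures were drawn with matplotlib 3.10.9. Labels name the samples biological replicates. The study's methods give 3 replicates per group for its own test, whereas 4 samples per group were deposited, and all were used here.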

Additional observations from a re-analysis of the deposited data

Results flagged for a closer look

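Eef1a2 in 24-month-old WT muscles was singled out because the fourth sample, at 945 TPM, lay far from the other 3, at 753 to 780 TPM. It was 1 of 84 groups of 4 values examined for a distant sample, where chance alone gives about 1 in 20, or 4.2.

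The genotype difference of 3 factors differed between 6 and 24 months by the interaction test, each on 1 scale. For Eif1a the interaction was -0.66 and for Eif3a -0.81 on the TPM scale, and for Eif2s2 it was 0.55 after median-of-ratios rescaling. The Eif1a and Eif3a calls were lost in 13 and 11 of 16 fits that left out a sample, and the Eif2s2 call in 0.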

How the results depend on the processing

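Of the 16 named differences under their alternatives, 400 results kept direction and side of the threshold, 18 lost and 6 gained the call and 4 changed sign. The signs that changed were those of Eef1a1 with age in WT (-0.0625 rescaled) and of Eef1a2 with age in UBR4 mKO (0.0284 rescaled, 0.0167 without replicate 2 of the older and 0.00337 without replicate 4 of the younger mutants, with -0.0834 the lowest of these fits). The cause was not tested. The numbers of factors called were on the TPM scale unless given as rescaled. No share of all genes under these settings stands beside them, so they show only how far calls moved. At 6 months there were 11 with the mitochondrial genome left out and 31 with array weights, in place of 19. With age in WT there were 4 rescaled, 3 without the mitochondrial genome, 46 with array weights and 0 by Dunn's test, in place of 21. With age in UBR4 mKO there were 3 rescaled and 2, 12 and 0 under the other settings, in the same order, in place of 1. For the interaction there were 1 rescaled, 1 without the mitochondrial genome, 19 with array weights, 0 with no filter on low genes and 1 with no variance trend, in place of 2. Leaving out 1 sample gave 11 to 29 at 6 months (5 to 24 rescaled), 0 at 24 months on both scales, 8 to 40 with age in WT (1 to 6), 1 to 2 with age in UBR4 mKO (2 to 9) and 0 to 14 for the interaction (1 to 2). The Eef1a2 to Eef1a1 ratio then differed by -0.39 to -0.17 at 6 months, -0.35 to -0.22 at 24 months, 0.09 to 0.23 with age in WT and 0.05 to 0.26 with age in UBR4 mKO.

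Samples with the same replicate number did not deviate together (24 pairs, correlations -0.35 to 0.181, 4 over 0.1), so the numbers were not taken as pairs. With a replicate block the counts were 17, 0, 14, 1 and 1 on the TPM scale and 12, 0, 1, 3 and 1 rescaled, for 6 months, 24 months, age in WT, age in UBR4 mKO and the interaction. Rescaling combined with the block or with leaving out a sample was chosen after seeing the data. TPM gives no depth, so 4 samples per group limit what can be detected.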
